A study of Mus musculus with 8 samples.

Results

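The 10 CXC chemokine ligands described here are Cxcl1, Cxcl2, Cxcl3, Cxcl5, Cxcl9, Cxcl10, Cxcl12, Cxcl13, Cxcl14 and Cxcl16, taken by symbol from a table of 22962 genes in which all 10 were present. They were measured by bulk RNA sequencing in mouse cultures of the stromal vascular fraction, the non-adipocyte cells of fat, from gonadal tissue of WT animals, labelled as mature adipocytes. Treated cultures received DoxSa, which the labels do not spell out in a series concerned with 1-deoxysphingolipids, and the control cultures received the solvent DMSO, both on day 6. Each treatment had 4 libraries, called DoxSa 1 to 4 and DMSO 1 to 4, all from the same wild-type background and with no transgene named. Dose, length of exposure, strain, sex and age were not stated in the labels. Nor do they say whether the 4 libraries of a treatment came from separate animals or cultures, and the p-values below therefore speak only of the spread among these libraries, which may be technical.

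CXC chemokines are small secreted proteins that direct the migration of leukocytes through G protein-coupled receptors, and bind to heparan sulfate on cells and matrix. Cxcl1, Cxcl2, Cxcl3 and Cxcl5 attract neutrophils through the receptor Cxcr2, and their genes are classic targets of NF-kB. Cxcl9 and Cxcl10 are induced by interferons and attract activated T cells and natural killer cells through Cxcr3. Cxcl12, Cxcl13, Cxcl14 and Cxcl16 are made by stromal or myeloid cells without acute stimulation and are grouped here as homeostatic, although Cxcl16 is also known to respond to interferon-gamma. In fat, stromal progenitors, adipocytes and resident macrophages are all known sources of such ligands.

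Upstream sequences of 4 ligands are shown because they hold the motifs through which the NF-kB and interferon pathways are known to act. They are the 250 bases before the annotated transcription start, from RefSeq on build GRCm38.p6, written 5′ to 3′ on the strand of the gene. Capitals mark matches, on either strand, to the 10-base kB consensus bound by NF-kB and to an ISRE-like motif, 2 copies of GAAA with any 2 bases between them, as in the interferon-stimulated response element. The deposited table gives no coordinates and rests on build GRCm39, so positions hold for GRCm38.p6 only. Overlapping matches run together as 1 stretch of capitals.
Cxcl1 (chr5:90890995-90891244, strand plus): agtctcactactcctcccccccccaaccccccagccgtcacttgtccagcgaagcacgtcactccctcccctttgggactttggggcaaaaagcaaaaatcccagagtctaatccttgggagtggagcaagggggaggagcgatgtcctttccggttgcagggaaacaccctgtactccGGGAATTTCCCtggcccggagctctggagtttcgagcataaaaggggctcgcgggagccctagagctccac
Cxcl2 (chr5:90903649-90903898, strand plus): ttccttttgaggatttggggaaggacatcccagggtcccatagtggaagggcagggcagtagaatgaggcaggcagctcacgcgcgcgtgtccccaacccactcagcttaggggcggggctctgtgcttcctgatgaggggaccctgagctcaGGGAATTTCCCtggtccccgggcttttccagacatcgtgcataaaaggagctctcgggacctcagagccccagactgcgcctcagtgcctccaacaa
Cxcl3 (chr5:90785851-90786100, strand plus): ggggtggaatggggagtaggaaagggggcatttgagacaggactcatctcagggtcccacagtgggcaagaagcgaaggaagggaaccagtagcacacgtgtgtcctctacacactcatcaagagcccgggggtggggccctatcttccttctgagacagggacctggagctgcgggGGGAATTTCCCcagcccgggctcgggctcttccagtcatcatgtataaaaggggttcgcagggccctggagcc
Cxcl10 (chr5:92348890-92349139, strand minus): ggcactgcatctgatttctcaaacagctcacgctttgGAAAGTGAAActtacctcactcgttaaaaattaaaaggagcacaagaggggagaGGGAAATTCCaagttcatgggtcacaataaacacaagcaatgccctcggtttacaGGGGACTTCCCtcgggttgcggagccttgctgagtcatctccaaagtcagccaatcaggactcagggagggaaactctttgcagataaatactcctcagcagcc

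Of the 10 ligands, 8 matched the promoter table, all but Cxcl5 and Cxcl16, and 4 of these 8 held a kB match, against 7.25% of all 32851 promoters over the same 250 bases. The kB spelling held by the most ligand promoters on the strand of the gene was GGGAATTTCC, in Cxcl1, Cxcl2 and Cxcl3. It was picked from these same promoters, so the 0.0852% of all promoters that hold it is no test of enrichment. The first base of this spelling lay 71 bases before the start in Cxcl1, 97 in Cxcl2 and 73 in Cxcl3. Cxcl10 had kB matches beginning 159 and 104 bases before the start and an ISRE-like match beginning 213 bases before it. The ISRE-like motif was found in Cxcl10 and Cxcl14 and in 2.98% of all promoters. These matches describe the letters only, and neither binding nor activity was measured.

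**Figure D1:**
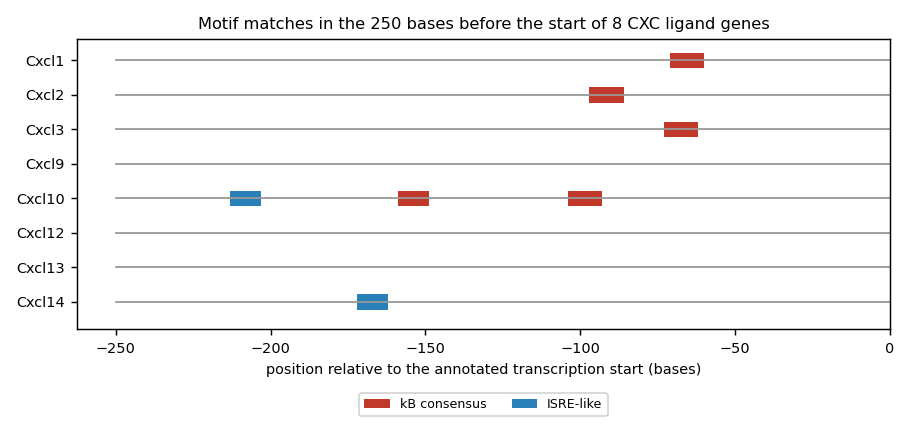
Positions of kB consensus and ISRE-like matches in the 250 bases before the annotated start of the 8 CXC ligand genes with a promoter sequence, in bases relative to the start. Cxcl1, Cxcl2 and Cxcl3 each hold 1 kB stretch within 97 bases of the start, and Cxcl10 holds 2 kB stretches and 1 ISRE-like match.

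The libraries were close in depth, with 39213008 to 41365861 reads assigned to genes, totals recovered from the steps of the deposited values. Levels are FPKM, the reads of a gene per kilobase of its length scaled to the reads of its library, and can be compared between genes. Adipocyte genes were abundant, with Adipoq at 754 to 799 FPKM in DoxSa and 730 to 794 FPKM in DMSO. The cultures also held macrophage transcripts, with the 10 macrophage markers summing to 7007 to 7488 FPKM in DoxSa and 6281 to 7238 FPKM in DMSO. Most of this sum was Lyz2, a general myeloid gene, at 4795 to 5263 FPKM in DoxSa and 4328 to 5100 FPKM in DMSO. Markers of neutrophils summed to 4.95 to 7.23 FPKM over the 8 libraries, and those of T, natural killer and B cells were at or near 0. In such bulk samples a change in the number of cells of a type and a change in RNA per cell cannot be told apart.

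Of the 10 ligands, 6 were higher after DoxSa and none was lower. They were Cxcl2 and Cxcl10, whose mean FPKM was 3.06 and 3.52 times that in DMSO, and, with smaller changes, Cxcl9, Cxcl13, Cxcl14 and Cxcl16. The test was limma on log2(FPKM + 1) with Benjamini-Hochberg adjustment over 12060 genes, and genes with an adjusted p under 0.05 were called. Of all tested genes, 3.88% were called higher and 2.02% lower, 5.9% in all. The ligands, and the gene lists below, were chosen with earlier results of these data known. Setting their counts beside the shares of all genes is therefore no test of enrichment. By class, 1 of 4 neutrophil attractants, 2 of 2 interferon-induced ligands and 3 of 4 homeostatic ligands were called higher. Their median log2 fold changes were 0.49, 1.12 and 0.26, against 0.39 over the 10 ligands and 0.01 over all tested genes. The difference between classes was not tested. The count of 6 depended on the processing: 1 ligand (Cxcl2) was called with no filter on low values, and 2 to 5 when 1 library was left out. The lowest of these counts were 2 without DoxSa 2 or DMSO 3 and 3 without DoxSa 1 or DoxSa 4.

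**Figure D2:**
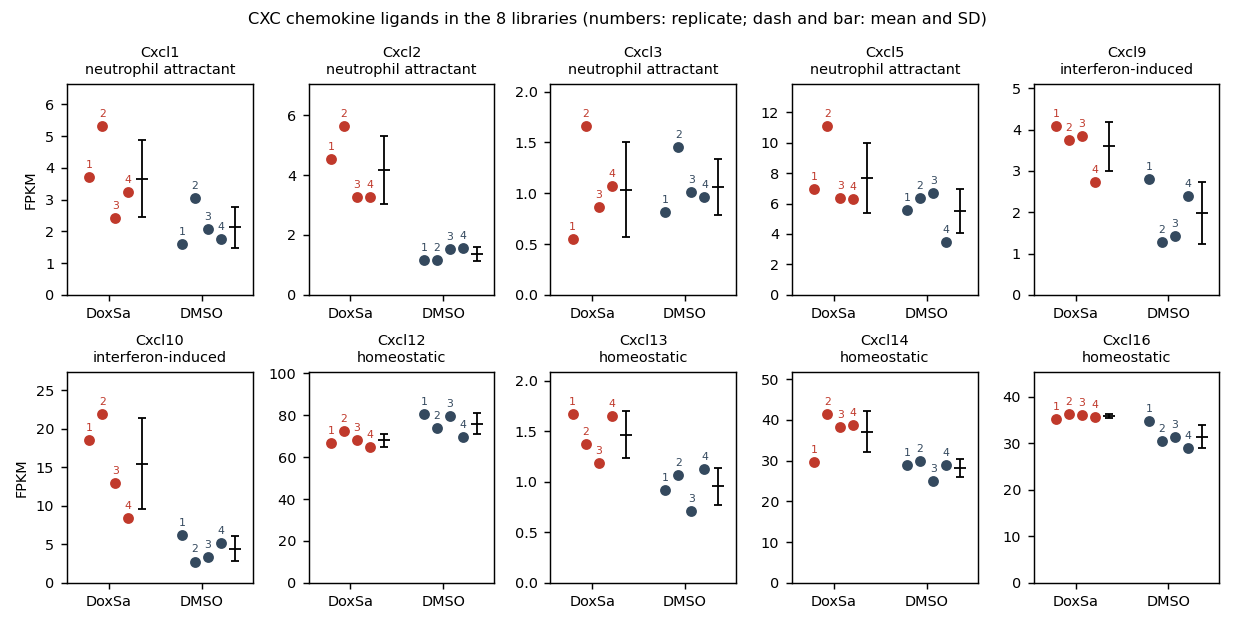
FPKM of each ligand in the 4 DoxSa libraries (left, red) and the 4 DMSO libraries (right, dark blue), numbered by replicate, with the mean and SD of each group as a dash and bar. Every vertical axis starts at 0 and has its own scale. The groups are apart for Cxcl2, Cxcl10, Cxcl13 and Cxcl16 and overlap for the other 6.

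In level, the homeostatic ligands Cxcl12, Cxcl14 and Cxcl16 stood above the rest of the 10 ligands in both treatments, while Cxcl13 was among the lowest. Pf4, a CXC ligand outside the 10 that is described below, was more abundant than any of them. After DoxSa the order of mean FPKM was Cxcl12 (67.97), Cxcl14 (37.03), Cxcl16 (35.8), Cxcl10 (15.4), Cxcl5 (7.68), Cxcl2 (4.17), Cxcl1 (3.66), Cxcl9 (3.5996), Cxcl13 (1.47) and Cxcl3 (1.03). In DMSO it was Cxcl12 (75.9), Cxcl16 (31.4), Cxcl14 (28.2), Cxcl5 (5.51), Cxcl10 (4.39), Cxcl1 (2.12), Cxcl9 (1.98), Cxcl2 (1.36), Cxcl3 (1.06) and Cxcl13 (0.953). In DoxSa the ranges of neighbours in this order overlapped for Cxcl14 and Cxcl16, for Cxcl10 and Cxcl5, among Cxcl2, Cxcl1 and Cxcl9, and for Cxcl13 and Cxcl3. In DMSO they overlapped for Cxcl16 and Cxcl14 and between all neighbours from Cxcl5 down to Cxcl13. Cxcl12 made up 36.1% to 39.3% of the summed FPKM of the 10 ligands in DoxSa and 48.5% to 52.1% in DMSO. The neutrophil attractants made up 7.45% to 11.8% in DoxSa and 5.38% to 7.92% in DMSO, and Cxcl9 with Cxcl10 6.73% to 13.2% in DoxSa and 2.67% to 5.54% in DMSO. The sum itself was 166 to 201 FPKM in DoxSa and 144 to 163 FPKM in DMSO.

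Among the neutrophil attractants, only Cxcl2 passed the test, while Cxcl3, a member of the same gene cluster on chromosome 5, had nearly equal means in both treatments. Cxcl2 (Entrez 20310), a rapidly induced product of macrophages and stromal cells, measured 4.53, 5.63, 3.27 and 3.26 FPKM in DoxSa 1 to 4, against 1.17, 1.15, 1.54 and 1.58 FPKM in DMSO 1 to 4. All DoxSa libraries lay above all DMSO libraries. These values rest on 145 to 242 reads per library in DoxSa and 49 to 70 in DMSO. The log2 fold change was 1.11 ± 0.13 (SE, limma adjusted p = 7.85e-04, n = 4 per group), rank 12 among all tested genes on this scale. Cxcl2 was called under all 16 alternative settings.

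Cxcl1 (Entrez 14825), the mouse ligand known as KC, measured 3.70, 5.30, 2.40 and 3.24 FPKM in DoxSa 1 to 4, against 1.61, 3.04, 2.06 and 1.76 FPKM in DMSO 1 to 4. The groups overlapped because DMSO 2 lay above DoxSa 3. The log2 fold change was 0.56 ± 0.17 (SE, limma adjusted p = 0.0907, 95% interval 0.18 to 0.95), so the ligand was not called. It passed the test without DoxSa 3 (0.70), without DMSO 2 (0.70) and with the replicate number as a block (adjusted p = 0.0181).

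Cxcl5 (Entrez 20311), a neutrophil attractant that adipose tissue is known to secrete, measured 6.96, 11.1, 6.37 and 6.31 FPKM in DoxSa 1 to 4, against 5.57, 6.34, 6.69 and 3.45 FPKM in DMSO 1 to 4. DoxSa 2 stood above all other libraries and DMSO 4 below them, while the remaining 6 libraries lay close together. Its log2 fold change of 0.41 ± 0.19 (SE) did not pass the test (limma adjusted p = 0.246) and was 0.24 without DoxSa 2 or without DMSO 4.

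Cxcl3 (Entrez 330122) measured 0.546, 1.66, 0.864 and 1.07 FPKM in DoxSa 1 to 4, against 0.817, 1.45, 1.01 and 0.959 FPKM in DMSO 1 to 4, from 23 to 67 reads in DoxSa and 34 to 58 in DMSO. The highest and the lowest library were both DoxSa. The log2 fold change was -0.04 ± 0.14 (SE, limma adjusted p = 0.931, 95% interval -0.35 to 0.28), and it took the opposite sign, without a call, when DoxSa 1 or DMSO 2 was left out. Transcripts of Cxcl2 and Cxcl3 share an exact run of 157 bases in GENCODE M21, so reads from that stretch could be divided or dropped by the counting, and both levels are uncertain to that extent. No other pair of the 10 ligands shared more than 23 bases.

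The balance among the 4 attractants was compared after these values were seen, as the FPKM ratio of each of their 6 pairs per library. The Cxcl2 to Cxcl3 ratio was 8.30, 3.395, 3.79 and 3.05 in DoxSa 1 to 4, against 1.44, 0.794, 1.52 and 1.64 in DMSO 1 to 4. It was the ratio with the largest difference, its log2 value being higher by 1.71 in DoxSa on average (exact two-sided permutation p = 0.0286, the smallest the design allows, adjusted p = 0.0429 over 6 pairs), and in all 4 DoxSa libraries above all 4 DMSO libraries. The same p was reached by Cxcl2 against Cxcl5 with a log2 difference of 1.11, by Cxcl1 against Cxcl2 and by Cxcl1 against Cxcl3. For Cxcl1 over Cxcl2 the log2 ratio fell by 0.82 in DoxSa, and for Cxcl1 over Cxcl3 it was higher by 0.89. The ratios of Cxcl1 to Cxcl5 and of Cxcl3 to Cxcl5 overlapped between treatments (exact permutation p = 0.229 and 0.171). With 1 library left out, p was 0.0571 for Cxcl1 to Cxcl2 and for Cxcl2 to Cxcl5 without any 1 DoxSa library, and for Cxcl1 to Cxcl3 without any 1 DMSO library. The groups stayed apart in each of these cases. The larger p arose because another assignment of the unequal groups gave as large a difference in the other direction. Because the pairs share genes, these 6 tests are not independent. All pairs at the smallest p, except Cxcl1 to Cxcl3, held Cxcl2, whose groups had already been seen to be apart. The ratios were compared with these levels known, so their p-values are no separate result.

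Both interferon-induced ligands were called higher, and on the log2(FPKM + 1) scale Cxcl10 had the highest fold change of all 12060 tested genes. With a pseudocount of 0.1, or with voom on recovered reads, Cxcl10 ranked 5 by log2 fold change. Cxcl10 (Entrez 15945) measured 18.5, 21.8, 13.0 and 8.44 FPKM in DoxSa 1 to 4, against 6.25, 2.76, 3.35 and 5.21 FPKM in DMSO 1 to 4. All DoxSa libraries lay above all DMSO libraries, but DoxSa 4 and DMSO 1 came close. This gave a log2 fold change of 1.58 ± 0.26 (SE, limma adjusted p = 0.00656, n = 4 per group). It ranged from 1.396 to 1.82 over the alternatives and was called in 15 of 16, the exception being no filter on low values (adjusted p = 0.0686). Reads assigned to Cxcl10 numbered 384 to 955 in DoxSa and 119 to 281 in DMSO. Exons of Art3 on the opposite strand share 133 bases with Cxcl10 in GENCODE M21, and whether the counting used strand is not given. Art3 measured 5.95 to 8.298 FPKM in DoxSa and 5.89 to 7.67 FPKM in DMSO, with overlapping groups.

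Cxcl9 (Entrez 17329), which in mice depends more on interferon-gamma than Cxcl10 does, measured 4.08, 3.75, 3.84 and 2.73 FPKM in DoxSa 1 to 4, against 2.81, 1.29, 1.42 and 2.40 FPKM in DMSO 1 to 4. DMSO 1 lay just above DoxSa 4, so the groups overlapped. The log2 fold change was 0.65 ± 0.16 (SE, limma adjusted p = 0.0339), and the call was lost without any 1 of DoxSa 1, DoxSa 2, DoxSa 3, DMSO 2 and DMSO 3 and with no filter on low values. Cxcl9 and Cxcl10 shared an order of libraries in which DoxSa 4 was the lowest DoxSa library and DMSO 1 and DMSO 4 were the highest DMSO libraries. Cxcl11, the remaining ligand of Cxcr3, is annotated as a transcribed pseudogene in the RefSeq mouse table and was not found by symbol among the genes with values.

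**Figure D3:**
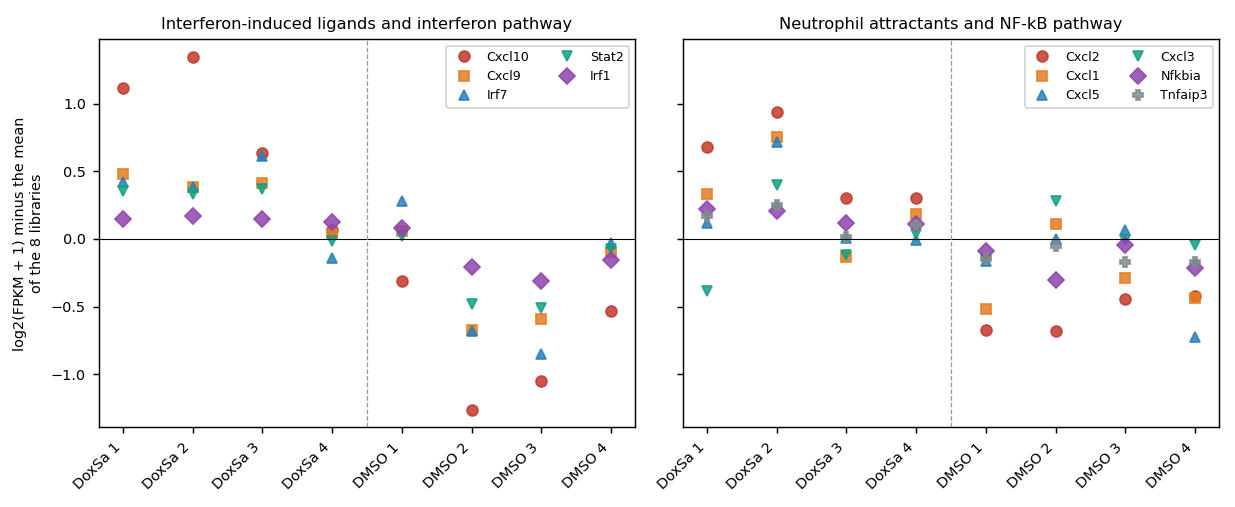
Level of each gene in each library as log2(FPKM + 1) minus its own mean over the 8 libraries, with Cxcl10, Cxcl9 and 3 interferon pathway genes on the left and the 4 neutrophil attractants, Nfkbia and Tnfaip3 on the right, and DoxSa libraries left of the dashed line in each panel. On the left all 5 genes lie closer to 0 in DoxSa 4 and DMSO 4 than in DMSO 2 and DMSO 3, where all 5 are below 0. The 3 pathway genes are a selection from the 14 tested, with Irf7 named after its values were seen. Not all of the 14 follow this pattern, as Jak1 was above its mean in DMSO 2 and Tbk1 in DMSO 3. On the right Cxcl2 is above 0 in all DoxSa libraries and below it in all DMSO libraries.

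Of the homeostatic ligands, Cxcl13, Cxcl14 and Cxcl16 were called higher by small margins, and Cxcl12, the most abundant of the 10 ligands, was lower in mean without a call. Cxcl12 (Entrez 20315), the ligand of Cxcr4 that retains progenitors and leukocytes in tissues, measured 66.6, 72.4, 68.0 and 64.8 FPKM in DoxSa 1 to 4, against 80.4, 74.0, 79.4 and 69.8 FPKM in DMSO 1 to 4. DMSO 4 lay below DoxSa 2, so the groups overlapped. The log2 fold change was -0.16 ± 0.05 (SE, limma adjusted p = 0.103, 95% interval -0.27 to -0.05). It was called lower without DMSO 4 (-0.20, adjusted p = 0.0374) and with quantile normalization (-0.18, adjusted p = 0.0389).

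Cxcl14 (Entrez 57266), a chemokine of stromal and epithelial cells, measured 29.8, 41.3, 38.2 and 38.8 FPKM in DoxSa 1 to 4, against 29.0, 29.9, 24.98 and 28.9 FPKM in DMSO 1 to 4. DoxSa 2, DoxSa 3 and DoxSa 4 were well above every DMSO library, while DoxSa 1 lay within the DMSO range. On the log2 scale the change was 0.37 ± 0.09 (SE, limma adjusted p = 0.0332), and it reached 0.47 without DoxSa 1. The call was lost without any 1 of DoxSa 2, DoxSa 3, DoxSa 4, DMSO 3 and DMSO 4.

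Cxcl16 (Entrez 66102), a membrane-bound ligand of Cxcr6 that is also a scavenger receptor for oxidized lipoprotein, measured 35.3, 36.2, 36.1 and 35.7 FPKM in DoxSa 1 to 4, against 34.8, 30.5, 31.3 and 28.9 FPKM in DMSO 1 to 4. The DoxSa libraries were tightly grouped just above DMSO 1. Its change on the log2 scale was 0.19 ± 0.05 (SE, limma adjusted p = 0.0488). Among left-out libraries the call was kept only without DMSO 1 (0.24). It was also lost with a pseudocount of 0.1, with quantile normalization, without the intensity trend, with the replicate block and with no filter. Exons of Zmynd15 on the opposite strand share 552 bases with Cxcl16, and Zmynd15 measured 0.529 to 0.960 FPKM in DoxSa and 0.409 to 0.771 FPKM in DMSO.

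Cxcl13 (Entrez 55985), the attractant of B cells through Cxcr5, was low, at 1.67, 1.37, 1.19 and 1.65 FPKM in DoxSa 1 to 4, against 0.916, 1.06, 0.711 and 1.12 FPKM in DMSO 1 to 4. All DoxSa libraries lay above all DMSO libraries, on 57 to 81 reads in DoxSa and 34 to 54 in DMSO. Expressed as a log2 fold change this was 0.34 ± 0.08 (SE, limma adjusted p = 0.0389), and only without DoxSa 3 or DMSO 4 was the call kept among left-out libraries. On recovered reads with voom the call was also lost (adjusted p = 0.0829).

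Together 4 of the 10 ligands had every DoxSa library above every DMSO library, against 7.8% of all tested genes. In 0 ligands was every DoxSa library below every DMSO library, against 4.71% of all tested genes, and the groups were apart in either direction for 12.5% of genes.

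**Figure D4:**
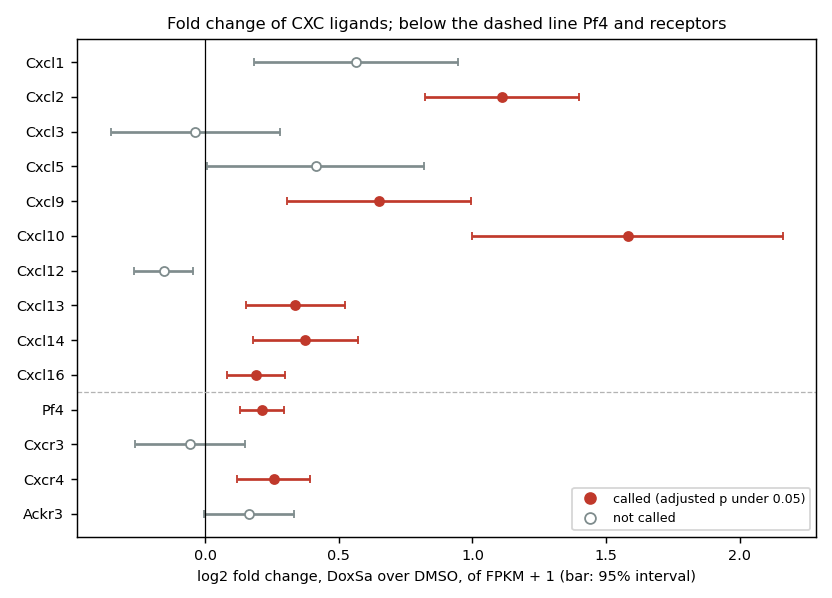
Log2 fold change of FPKM + 1, DoxSa over DMSO, with its 95% interval from limma for the 10 ligands and, below the dashed line, Pf4 and the 3 tested receptors. Filled red points were called and open grey points were not; Cxcl10 (1.58) and Cxcl2 (1.11) lie farthest to the right and Cxcl12 (-0.16) farthest to the left.

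Among the other CXC ligands, Pf4, the platelet factor that is also a transcript of tissue macrophages, was called higher. Pf4 measured 220, 208, 214 and 212 FPKM in DoxSa 1 to 4, against 179, 187, 195 and 176 FPKM in DMSO 1 to 4. Its log2 fold change was 0.21 ± 0.04 (SE, limma adjusted p = 0.00820), called under all 16 alternatives. Ppbp and Cxcl15, attractants of neutrophils, were below the minimum for testing, at most 0.256 and 0.0116 FPKM in any library. Cxcl17, like Cxcl11, was not found by symbol among the genes with values.

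Most receptor transcripts were sparse, while Ackr3 was the most abundant of those listed. Of 8 receptors and decoy receptors 3 were tested, of which Cxcr4 was called higher. Cxcr4, the receptor of Cxcl12, measured 2.53, 2.19, 2.83 and 2.57 FPKM in DoxSa 1 to 4, against 1.95, 1.80, 2.12 and 1.94 FPKM in DMSO 1 to 4. The groups were apart and the log2 fold change was 0.26 ± 0.06 (SE, limma adjusted p = 0.0356). The call was lost in 7 of 16 alternatives, among them leaving out any 1 of DoxSa 1, DoxSa 3, DoxSa 4, DMSO 1, DMSO 2 and DMSO 4. Ackr3, which scavenges Cxcl12, averaged 12.7 ± 1.35 FPKM in DoxSa and 11.2 ± 1.07 FPKM in DMSO (SD, n = 4 each) and was not called (limma adjusted p = 0.267). Cxcr3, the receptor of Cxcl9 and Cxcl10, averaged 0.812 ± 0.171 FPKM in DoxSa and 0.889 ± 0.224 FPKM in DMSO (SD, n = 4 each) and was not called (limma adjusted p = 0.805). Cxcr2 was listed at 0 in every library but DMSO 3, with 1 read. Cxcr1, Cxcr5 and Cxcr6 had at most 4 reads in any library, and Ackr1, a decoy receptor, had 12 reads in DoxSa 2 and 1 to 3 in the others.

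The list of 17 genes acting in or above NF-kB signalling was tested in full, and 5 were called higher and 0 lower. Of all tested genes 3.88% were called higher and 2.02% lower. The called genes included Nfkbie and Nfkbia, which encode inhibitors of NF-kB, Tnfaip3, which encodes the A20 brake on the pathway, and Cebpb, a transcription factor of inflammatory and adipocyte genes. Nfkbia averaged 32.6 ± 1.39 FPKM in DoxSa and 25.8 ± 2.17 FPKM in DMSO (SD, n = 4 each), with a log2 fold change of 0.33 ± 0.06 (SE, limma adjusted p = 0.00732). The log2 fold changes of Nfkbie, Tnfaip3 and Cebpb were 0.37, 0.27 and 0.23. The receptor genes Tnfrsf1a and Il1r1 were not called, at 0.02 and 0.07. The median over the 17 was 0.13, and 1 gene was called with no filter on low values, 2 without DoxSa 1 and 3 without DoxSa 2 or DoxSa 3.

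Of 16 genes of the interferon pathway, 14 were tested, 3 were called higher and 0 lower, against 3.88% and 2.02% of all tested genes. Jak2, a kinase of the interferon-gamma receptor, averaged 10.4 ± 0.243 FPKM in DoxSa and 8.51 ± 0.372 FPKM in DMSO (SD, n = 4 each), with a log2 fold change of 0.26 ± 0.04 (SE, limma adjusted p = 0.00446). Stat2 and Irf1, transcription factors of interferon-induced genes, had log2 fold changes of 0.52 and 0.30. Stat2 measured 23.4, 23.0, 23.6 and 17.9 FPKM in DoxSa 1 to 4, against 18.4, 12.7, 12.4 and 17.1 FPKM in DMSO 1 to 4, so DMSO 1 lay above DoxSa 4 as it did for Cxcl9. Irf7, named after its values were seen, repeated this order with 33.1 FPKM in DoxSa 4 and 44.7 FPKM in DMSO 1, and was not called (limma adjusted p = 0.148). Ifngr1 and Jak1 were not called, at -0.03 and 0.01, the second of which changed sign with 2 other scalings. Ifnb1, the gene of interferon beta, was at most 0.0606 FPKM in any library. The median over the 14 was 0.097. The count was 5 without DMSO 1 and 1 without any 1 of DoxSa 1, DoxSa 2, DoxSa 3, DMSO 2 and DMSO 3, or with no filter.

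Of 8 regulators of chemokine mRNA decay, all tested, 1 was called higher and 0 lower, against 3.88% and 2.02% of all tested genes. The called gene was Zc3h12a, which encodes the ribonuclease Regnase-1. It averaged 7.40 ± 0.340 FPKM in DoxSa and 6.06 ± 0.472 FPKM in DMSO (SD, n = 4 each), with a log2 fold change of 0.25 ± 0.05 (SE, limma adjusted p = 0.0208). Without DoxSa 1, DoxSa 2, DoxSa 3 or DMSO 3, or with no filter, it was not called. The most abundant members, Zfp36l1 and Zfp36l2, were not called, at 0.02 and -0.01, and the first changed sign without DMSO 2. Of 7 proteases that shed or trim CXC ligands, 5 were tested and 0 called in the main limma fit, against 5.9% of tested genes. With voom on recovered reads 1 protease was called higher. Adam17, the sheddase with the smallest p, had a limma p of 0.00369 unadjusted and 0.0570 adjusted. The most abundant proteases, Mmp9 and Mmp14, had log2 fold changes of 0.14 ± 0.15 and -0.08 ± 0.04 (SE).

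By the root mean square difference between profiles of log2(FPKM + 1) over the 8 libraries, each centred on its own mean, the genes most like Cxcl10 among 10634 candidates were Ifit1 (0.18), Rsad2 (0.23) and Oasl1 (0.26), interferon-induced antiviral genes. Those most like Cxcl2 were Spp1 (0.16), which encodes osteopontin, Serpinb2 (0.17), which encodes a plasminogen activator inhibitor, and Slc7a11 (0.198), which encodes the cystine importer. Spp1 measured 519, 471, 383 and 407 FPKM in DoxSa 1 to 4, against 231, 217, 227 and 222 FPKM in DMSO 1 to 4. For all 6 genes every DoxSa library lay above every DMSO library, as for 7.8% of all tested genes. They were chosen for likeness to Cxcl10 and Cxcl2, whose groups were themselves apart, so this is no separate result.

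Markers of other cell types are given beside these results. Their counts of calls stand against 3.88% of all tested genes called higher and 2.02% lower. Of 10 macrophage markers, all tested, Cd14 and Fcgr1 were called higher. That count of 2 was 0 with no filter on low values and 1 to 3 with 1 library left out. The summed level of the list, mostly Lyz2, overlapped between treatments in the ranges given above. Of 10 neutrophil markers 9 were in the table and 4 tested, 0 were called by limma, and they summed to 5.05 to 7.23 FPKM in DoxSa and 4.95 to 6.67 FPKM in DMSO. Ly6g and Mpo were at most 0.0269 and 0.0192 FPKM in any library, while S100a8 measured 1.54 to 3.28 FPKM in DoxSa and 1.63 to 3.05 FPKM in DMSO, and Csf3r 1.26 to 1.63 FPKM in DoxSa and 1.44 to 1.80 FPKM in DMSO. T and natural killer cell markers summed to at most 0.298 FPKM and B cell markers to at most 0.0661 FPKM. Endothelial markers summed to 1.89 to 2.17 FPKM in DoxSa and 1.41 to 1.86 FPKM in DMSO, and mesothelial markers to 11.6 to 16.2 FPKM in DoxSa and 16.8 to 17.3 FPKM in DMSO, a list whose most abundant gene was Krt19. Of 9 fibroblast and progenitor markers 8 were tested and 1, Pdgfrb, was called lower, and of 10 adipocyte markers 1, Retn, was called lower. The part of macrophage, endothelial and mesothelial transcripts in the ligand results was not tested.

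**Figure D5:**
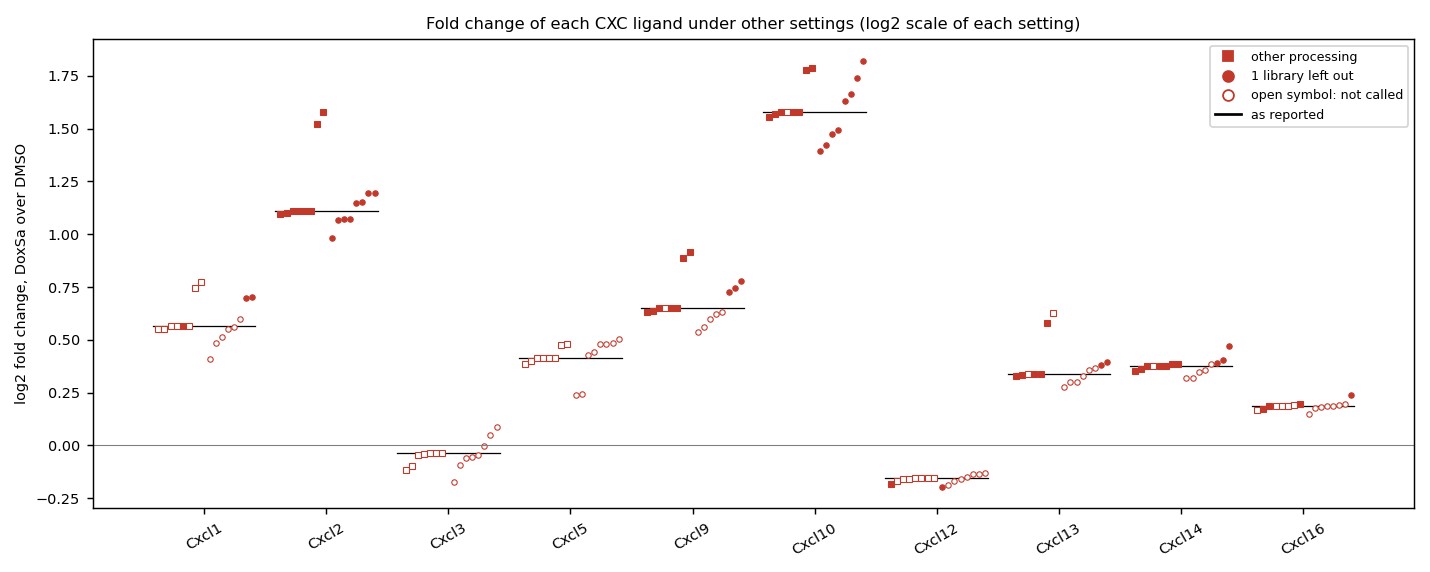
Log2 fold change of each ligand under the alternative settings, squares for other processing and circles for fits with 1 library left out, filled where the ligand was called, with a black line at the value reported. Cxcl2 is filled throughout and Cxcl10 in all but 1 setting, while Cxcl9, Cxcl13, Cxcl14 and Cxcl16 are filled in part and Cxcl3 spans 0.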

How the data were processed

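Per the labels' protocols, TRIzol was used for the RNA and the VAHTS Universal V6 kit for the libraries. HISAT2, HTSeq and build GRCm39 are named in the submitters' processing notes, without versions, annotation or strand setting, which the sources used here do not state. Deposited values are FPKM by the authors for 22962 genes in 8 libraries, used without scaling for composition. Library totals and whole reads were recovered from the steps of these values, for 12051 of 12060 tested genes within 0.001 of whole reads.

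The main test was limma 3.58.1 in R 4.3.3 (lmFit, eBayes with intensity trend) on log2(FPKM + 1), without covariates, on genes averaging 0.5 FPKM or more, and called genes had a Benjamini-Hochberg adjusted p under 0.05 over all tested genes. Fold changes are on this scale and understate changes of low genes. SE and 95% intervals are those of the moderated fit. Alternatives were a pseudocount of 0.1, no filter, a minimum of 2 FPKM, median-of-ratios scaling, quantile normalization, no trend, voom on recovered reads, a replicate block and leaving out each library. Other steps used Python 3.11.15, numpy 2.4.6, pandas 2.3.3 and matplotlib 3.10.9. The fit and the recovery of reads were tested on simulated data.

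The ligands, pathway lists and markers were chosen with earlier results of these data known, and 1 gene of the interferon list is not reported here. Genes named besides the 10 ligands were all other ligands and receptors, up to 4 called and the 2 most abundant uncalled genes per pathway list, and the 3 genes nearest in profile to Cxcl10 and to Cxcl2. Others, such as Art3, Zmynd15, Irf7, Adam17, Ifnb1 and cell type markers, were named beside a result after their values were seen. Replicate numbers showed no pairing of the libraries across genes, which does not exclude a shared source. The pairs of attractants were compared after the values were seen.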

Additional observations from a re-analysis of the deposited data

Results flagged for a closer look

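In 2 of 32 groups of 4 libraries, a DoxSa library stood apart from the other 3, which is near the 1 group in 20 that chance gives. The groups were the DoxSa and the DMSO libraries of 16 genes, the 10 ligands, Pf4, Ppbp and 4 receptors. For Cxcl5 this was DoxSa 2, whose gap to the nearest DoxSa library took a share of 0.863 of the group's range, more than Dixon's 95% limit for 4 values allows. For Ackr1, a decoy receptor, it was again DoxSa 2, with a share of 0.997, on 12 reads against 3 in each other DoxSa library. DoxSa 2 was also the highest DoxSa library for Cxcl1, Cxcl2, Cxcl3, Cxcl10, Cxcl12, Cxcl14 and Cxcl16. The cause was not tested.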

How the results depend on the processing

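With no filter on low values, which brought more and lower genes into the fit, 1 ligand was called higher, and 158 genes were higher and 108 lower. Leaving out 1 library at a time gave 2 to 5 ligands higher and 0 to 1 lower, and 233 to 490 genes higher and 152 to 235 lower. Gene counts moved most when DoxSa 2 was dropped (233 higher, 152 lower), then DoxSa 1 (247 higher, 154 lower), DoxSa 3 (308 higher) and DMSO 2 (158 lower). The 1 ligand called lower was Cxcl12, when DMSO 4 was dropped and, with 384 genes higher and 316 lower, under quantile normalization. All other settings gave 5 or 6 ligands higher and 0 lower. Cxcl3, called in no setting, ranged from -0.175 to 0.0852 over left-out libraries (0.0852 when DoxSa 1 was dropped, 0.049 for DMSO 2). Jak1 turned to -0.0064 when scaled by median of ratios and to -0.0188 by quantiles, and Zfp36l1, between -0.0221 and 0.0609 over left-out libraries, to -0.0221 when DMSO 2 was dropped. The cause was not tested. A minimum of 2 FPKM left Cxcl3 and Cxcl13, with at most 81 reads a library, untested. Of the 10 genes called and named from the lists of other ligands, receptors and pathways, 3 (Pf4, Nfkbie and Jak2) were called in all 16 alternatives.

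The correlations across genes of same-numbered libraries' deviations from their group means were -0.058, 0.052, -0.099 and 0.065 for numbers 1 to 4. They showed no pairing by number across genes, but cannot exclude that same-numbered libraries share a source. With the replicate number as a block, 6 ligands were higher, with Cxcl1 gained (limma adjusted p = 0.0181) and Cxcl16 lost (0.0721), and 415 genes were higher and 209 lower. Of the attractant ratios, the log2 difference of Cxcl2 to Cxcl3 was 1.39 to 1.87 over left-out libraries, each with exact permutation p = 0.0286, which is the smallest these designs can give and says nothing more of stability. Cxcl1 to Cxcl2, Cxcl1 to Cxcl3 and Cxcl2 to Cxcl5 had exact permutation p = 0.0571 in 4 of 8 such cases each, with the groups still apart.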
